A study of Mus musculus with 17 samples.

Results

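Skeletal muscle without dystrophin was compared with normal muscle across all genes measured, on the 6 mdx and 6 normal arrays of a series of 17 expression arrays. The comparison took every probe set that is not an Affymetrix control, 22626 of the 22690 in the deposited table, and these covered 12393 genes with a single symbol. Each array held RNA of the tibialis anterior, the mostly fast-fibred muscle at the front of the shin, from male mice killed at an age of 56 days, with the muscles of both legs pooled. The normal group carried no alteration that the labels name, and the labels do not give its strain. The mdx group carried the mdx mutation of the dystrophin gene Dmd, and no agent, transgene or Cre driver was given to either group. Each label calls its array a biological replicate and no label names an animal, so p-values measure the spread between these samples. The 5 other arrays held mdx mice with a utrophin transgene. They entered the estimate of the spread, the choice of a gene's probe set and the search for sets of arrays described below, but not the differences.

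Dystrophin is a rod-shaped protein under the membrane of the muscle fibre that ties actin inside the cell to laminin outside it, through dystroglycan and the sarcoglycans. In mdx mice a premature stop codon removes most of it, and fibres are torn by contraction, die and are cleared by macrophages. Satellite cells, the stem cells of muscle, then divide, fuse and build new fibres that pass through embryonic stages. At the age studied here, mdx limb muscle is known to be past its first wave of fibre death and to hold fibres at several stages of repair.

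Values are log2 levels, and differences are mdx minus normal on that scale, so that a difference of 1 is 2-fold. Levels on the arrays of a group are given as the lowest, the median and the highest of its 6 values. Values after ± are standard errors of a difference in limma unless marked SD, and a gene was called where its p, with Benjamini-Hochberg adjustment across the 12393 genes, was under 0.05. Some normal or mdx arrays lay at or under the level of unspiked bacterial control probe sets, which was 2.64 to 2.87. A difference is then given as at least the value found with that level in their place. The median level over all probe sets was 3.52 to 3.66 on the 12 arrays, and pairs of arrays correlated between 0.939 and 0.996. Apart from genotype the arrays formed 2 sets on the largest component of the residuals (42.5% of their variance), with mdx and normal arrays 3, 4 and 5 in set 1 and arrays 1, 2 and 6 in set 2. No label explains these sets. Against the labels, normal array 6 and mdx arrays 1 and 4 had Xist, the transcript of the inactive X chromosome, above the Y-linked Eif2s3y. On mdx array 6 both were present, at 5.40 and 8.11. Counts are therefore also given without the arrays with the female pattern.

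Dmd itself was read by 3 probe sets, and the 2 with signal separated the groups completely. On 1417307_at the levels in order of replicate number were 6.58, 6.66, 6.33, 6.58, 6.88 and 6.81 in normal muscle and 3.28, 3.27, 3.28, 3.43, 3.52 and 3.34 in mdx muscle. On 1448665_at the normal arrays lay between 7.42 and 9.29 and the mdx arrays between 4.12 and 6.30. Every array thus carried the Dmd level that its label calls for, and all mdx arrays kept some signal on that probe set. The log2 differences were -3.28 ± 0.09 and -3.01 ± 0.48 (adjusted p = 4.32e-12 and 0.00173 over all probe sets in limma, and an exact two-sided permutation p of 0.00216 for each, the smallest that 6 against 6 arrays allow). The other probe set, 1430320_at, was near 3 in both groups, at 3.10 ± 0.13 (SD, n = 6) and 2.99 ± 0.05 (SD, n = 6).

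Of 16 measured genes of the dystrophin complex, 1 was called higher and 2 lower, where 3.22% of all genes were called higher and 1.44% lower. This list and those below were chosen with earlier results of these data known, so their counts describe the lists and do not test them. The higher count became 2 without normal array 4 or mdx array 2. Cav3, the muscle caveolin that coats membrane pits beside the complex, measured 7.67, 7.92 and 7.97 on the normal and 8.50, 9.01 and 9.57 on the mdx arrays. The groups did not overlap, and the difference was 1.11 ± 0.15, adjusted p = 0.000337. The dystroglycan gene Dag1 (9.69 and 9.92), the sarcoglycan gene Sgca (9.63 and 9.67) and sarcospan, Sspn (9.62 and 9.64), were not called. Nos1, the neuronal nitric oxide synthase that dystrophin anchors, was the other gene called lower beside Dmd. Its levels of 6.81, 7.71 and 8.94 on the normal and 5.06, 5.74 and 6.81 on the mdx arrays met at 6.81, and its difference was -1.86 ± 0.50, adjusted p = 0.0473. The call was lost without any of 9 of the 12 arrays (normal 1, 2, 4, 5 and 6 and mdx 1, 3, 4 and 5), with an adjusted p up to 0.108. Of 10 measured enzymes that build the sugar chains of dystroglycan, 0 were called in limma (unadjusted p under 0.05 in 1 of 10).

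Across all genes, loss of dystrophin went with more strong increases than strong decreases. Of 12393 genes, 578 were called (4.66%), 399 of them higher (3.22%) and 179 lower (1.44%). An unadjusted p under 0.05 in limma was found in 2149 of the 12393 genes, the background for the counts at that level given for single lists. Calls of 2-fold or more numbered 279 higher (2.25%) and 56 lower (0.452%), and 14 genes were higher by at least 4 on the log2 scale. The genes called higher had a median difference of 1.37 and the genes called lower one of -0.78. The split depended on scaling and on the array set: with each array centred on its median 2017 genes were called, 25.6% of them higher, and after quantile normalization 736, 59% higher, against 69% as deposited. The median over all genes was -0.04 as deposited, and 67.8% of all genes had a negative difference. Of the 578 genes, 577 were called with the same sign after median centring and 549 after quantile normalization. Without the female-pattern arrays 370 genes were called, 339 of them among the 578. Within set 1 alone 2565 genes were called and within set 2 alone 272, holding 416 and 179 of the 578. Of these calls 26.9% were higher in set 1 and 63.2% in set 2, and with the set as a block it was 57.4% of 1238. The sets were drawn from the residuals of these same values, so the block lowers the spread by construction and favours calls. All 578 had the same sign in both sets, which calling them on these same arrays favours. The groups did not overlap in 561 genes (4.53%), 315 higher (2.54%) and 246 lower (1.98%) in the mutant. Taken singly, 913 of 22626 probe sets were called (4.04%).

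**Figure D1:**
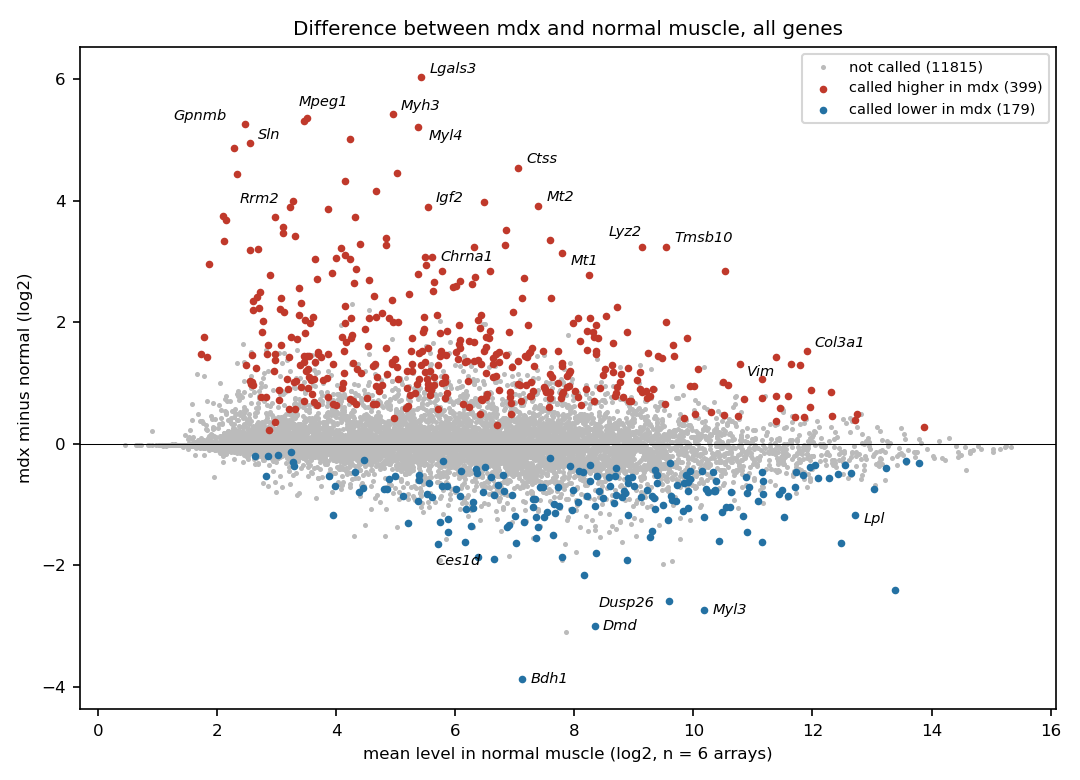
Difference between mdx and normal muscle (log2, vertical axis) against the mean level in normal muscle (log2, 6 arrays, horizontal axis), 1 point per gene. The 399 genes called higher (red) reach a difference of 6.03 for Lgals3, and the 179 called lower (blue) reach furthest for Bdh1, drawn at -3.87 from the values as deposited, of which 2 on mdx arrays did not exceed the control level.

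The mdx arrays differed among themselves in the size of the response. Over the 399 genes called higher, the median rise over the normal mean was 2.02 on mdx array 1, 1.41 on array 4, 1.33 on array 5, 1.29 on array 6, 1.22 on array 3 and 0.88 on array 2. The mdx array 1 held the highest mdx value in 249 of these genes and array 2 the lowest in 192. Over the 179 genes called lower, the medians ran from -0.56 on array 2 to -0.99 on array 4. The normal arrays lay between -0.16 and 0.19 for the same genes called higher. Both arrays at the top of this order, mdx 1 and mdx 4, were arrays with the female pattern, and array 2 had the male pattern. The part of that pattern in the order was not tested.

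**Figure D2:**
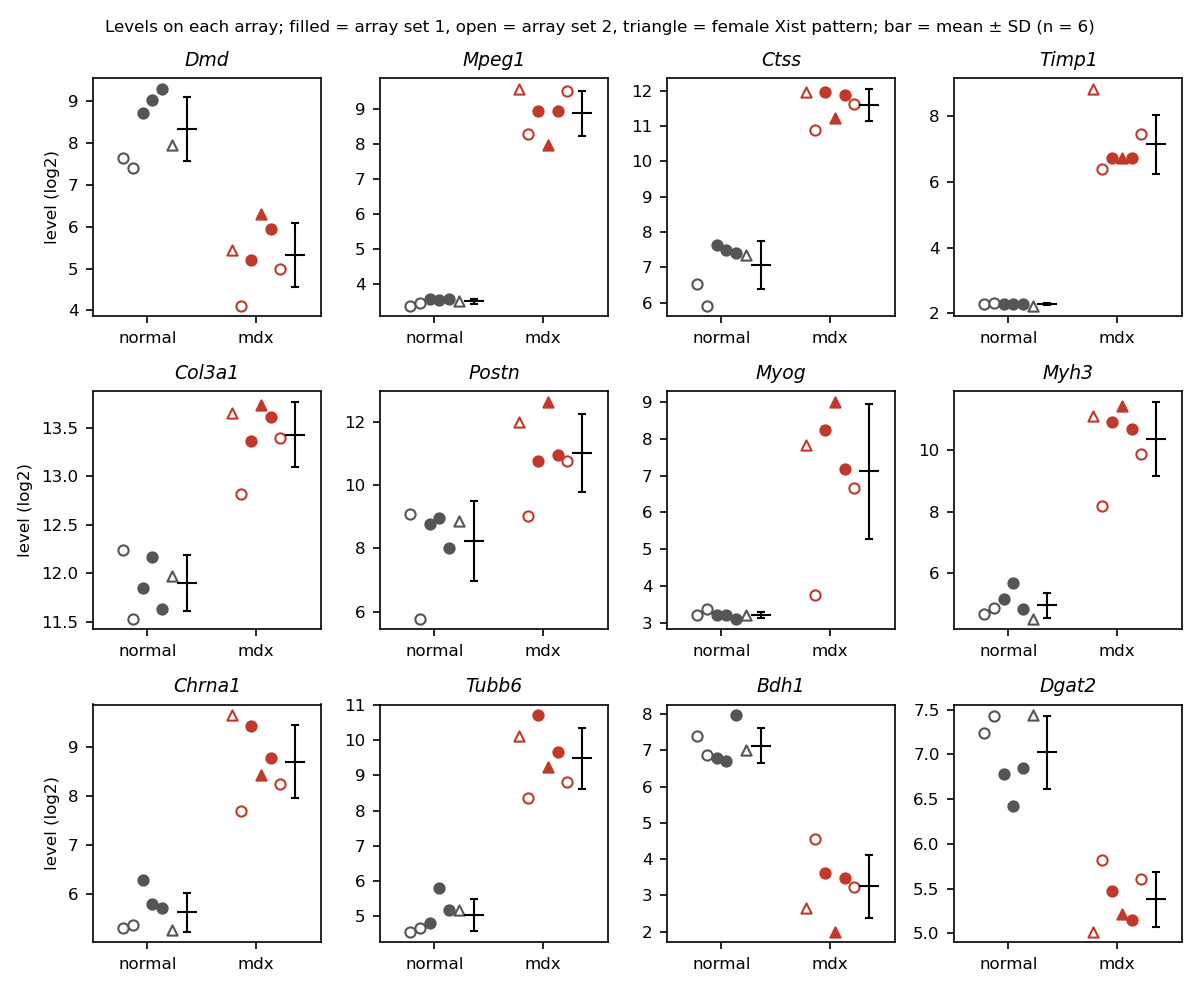
Levels of 12 genes (log2, vertical axes) on the 6 normal (grey) and 6 mdx (red) arrays, with the mean and SD beside them; filled symbols are array set 1, open symbols set 2 and triangles arrays with the female Xist pattern. On mdx array 2 Myog, Myh3 and Chrna1 lay nearest to the normal arrays, and Postn on the lowest normal array lay 2.24 below the others.

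Many of the strong increases were in macrophage genes. Of 27 measured genes of the macrophage list, 16 were called higher and 0 lower, with a median difference of 1.32. Of the 12 markers of this cell type, 11 were called, and their summed linear level was 627 to 1821 in normal and 6435 to 15150 in mdx muscle. None of the 12 lay at the control level on all arrays. Mpeg1, a pore-forming protein of phagocytes, measured 3.39, 3.55 and 3.58 on the normal and 7.97, 8.95 and 9.56 on the mdx arrays. Its difference was 5.36 ± 0.30, adjusted p = 7.28e-08. Tyrobp, an adaptor that signals for activating receptors of myeloid cells, measured 3.30, 3.33 and 3.86 on the normal and 7.92, 8.91 and 9.71 on the mdx arrays (5.31 ± 0.26, adjusted p = 1.19e-08). The lowest mdx array stood 4.39 above the highest normal array for Mpeg1 and 4.07 above it for Tyrobp. Cd68, a membrane protein of macrophage lysosomes, measured 2.21, 2.33 and 2.54 on the normal and 5.64, 6.82 and 7.66 on the mdx arrays. All 6 normal arrays lay at or under the control level, so the rise was at least 4.01 (adjusted p = 1.13e-07). Csf1r, the receptor for the growth factor on which macrophages depend, measured 4.93, 6.21 and 6.73 on the normal and 7.95, 8.80 and 9.36 on the mdx arrays (2.68 ± 0.35, adjusted p = 0.000238), and Lyz2, a lysozyme, 8.33, 9.09 and 10.01 on the normal and 11.37, 12.48 and 13.06 on the mdx arrays (3.24 ± 0.40, adjusted p = 0.000118). Adgre1, which encodes the F4/80 antigen, rose less, by 1.95 (adjusted p = 0.000283), as did the mannose receptor Mrc1 (by 1.75, adjusted p = 0.00222). In whole tissue, more cells of a type and more RNA per cell cannot be told apart. Lyve1, a marker of resident macrophages and lymph vessels, was not called (5.39 and 4.99), nor was the scavenger receptor Msr1 on the probe set used (3.90 and 3.93). Another Msr1 probe set had a difference of 0.64 (adjusted p = 0.0417 over all probe sets). The count was 15 without the female-pattern arrays and 12 in set 2 alone.

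Of 22 measured genes of phagocytosis and of lipid handling by macrophages, 7 were called higher and 1 lower. Lgals3, a galectin released by phagocytes, measured 4.51, 5.47 and 6.18 on the normal and 10.28, 11.66 and 12.14 on the mdx arrays, the largest rise of all genes (6.03 ± 0.39, adjusted p = 1.81e-07). Gpnmb, a glycoprotein of phagosomes, lay at or under the control level on all normal arrays and at 5.91, 7.95 and 8.86 on the mdx arrays, a rise of at least 4.95 (adjusted p = 1.71e-07). Apoe, the lipid carrier, measured 6.18, 6.80 and 7.34 on the normal and 9.63, 10.46 and 10.69 on the mdx arrays (3.51 ± 0.39, adjusted p = 5.3e-05). The lipid-binding protein Fabp5 (by 2.73) and the lipid droplet coat protein Plin2 (by 1.85) also rose, both with no overlap between groups. The member called lower was Lpl, the lipase of capillary walls, which muscle fibres and fat cells make. It measured 12.33, 12.86 and 12.96 on the normal and 11.17, 11.65 and 11.80 on the mdx arrays (-1.17 ± 0.16, adjusted p = 0.000335). Fabp4 (12.79 and 12.62) and Cd36 (10.82 and 10.10), which carry fatty acids in fat cells, endothelium and fibres, were not called on the probe sets used. Another probe set of each passed over all probe sets, at -1.05 for Fabp4 (adjusted p = 0.0285) and -0.98 for Cd36 (adjusted p = 0.0188).

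Fc receptors and leukocyte integrins, with which myeloid cells bind antibody and adhere, showed 8 of 20 members higher and 0 lower. The receptor gene Fcgr3 measured 3.56, 4.55 and 5.09 on the normal and 6.33, 7.79 and 8.34 on the mdx arrays (3.28 ± 0.33, adjusted p = 1.73e-05), and the inhibitory receptor Fcgr2b 2.93, 4.12 and 5.01 on the normal and 6.27, 7.22 and 8.15 on the mdx arrays (3.22 ± 0.38, adjusted p = 8.38e-05). Itgb2, the beta chain of the leukocyte integrins, rose from 3.41, 3.49 and 3.53 to 4.10, 5.53 and 6.72 (2.04 ± 0.35, adjusted p = 0.00223). Coro1a, an actin regulator of blood cells, rose by 2.70 and Plek, a substrate of protein kinase C in platelets and leukocytes, by 1.99. On the mdx arrays Cd52 reached 8.43 on array 1, and the 5 other arrays lay at 6.72 or below.

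Of 25 measured chemokines and chemokine receptors, 5 were called higher and 0 lower, and the median difference was 0.09. Ccl8, which attracts monocytes, measured 3.87, 3.94 and 5.10 on the normal and 6.47, 7.18 and 8.36 on the mdx arrays (3.11 ± 0.29, adjusted p = 1.07e-05). Pf4, a chemokine of platelets and macrophages, measured 5.03, 5.37 and 6.5 on the normal and 7.61, 8.58 and 9.24 on the mdx arrays (2.94 ± 0.39, adjusted p = 0.000262), and Ccl6 and Ccl9, made by myeloid cells, rose by 2.84 and 2.62. Ccr2, the receptor that brings monocytes out of the blood, rose by 1.16 (adjusted p = 0.0149), with an adjusted p of 0.157 without the female-pattern arrays. The uncalled members with the highest mean level, Cxcl14, Cxcl12 and Ccl11, which stromal cells make, had differences of 0.99, 0.09 and -0.11. Of 30 cytokines and cytokine receptors, 2 were called higher. One was Il13ra1, a receptor chain for interleukin 13 (1.5 ± 0.33, adjusted p = 0.0142), for which 1 of 4 other probe sets, all at low levels, had a difference of -0.04. The other, Il1r1, lost its call without any of 8 of the arrays (normal 3, 4, 5 and 6 and mdx 1, 2, 5 and 6), and the list had 0 calls without the female-pattern arrays.

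Of 17 complement genes, 7 were called higher and 0 lower, with a median of 0.77. The 3 chains of C1q, the molecule that starts the classical pathway, measured 4.53, 5.46 and 7.23 on the normal and 6.40, 8.54 and 9.16 on the mdx arrays for C1qa, 6.30, 7.91 and 8.34 on the normal and 10.23, 10.96 and 11.54 on the mdx arrays for C1qb and 3.70, 4.34 and 5.2 on the normal and 7.50, 7.97 and 8.96 on the mdx arrays for C1qc. Their differences were 2.66, 3.35 and 3.74 (adjusted p = 0.00567, 2.12e-05 and 4.5e-05). The mdx arrays stood clear of the normal arrays for C1qb and C1qc, while mdx array 1 was the one within the normal range for C1qa, at 6.40. The protease C1s1 rose by 1.02 and Cd55, which shields cells from complement, by 0.93, whereas clusterin, Clu, was not called on the probe set used (10.18 and 11.44). On 2 of its 3 other probe sets it was, with differences of 1.23 and 1.29 (adjusted p = 0.00894 and 0.00387 over all probe sets). Of 8 genes of MHC class II presentation, 6 rose and 0 fell, with a median of 1.93. H2-Aa measured 7.85, 8.16 and 9.09 on the normal and 9.66, 10.35 and 10.99 on the mdx arrays (1.96 ± 0.34, adjusted p = 0.00252), and H2-Ab1 and H2-Eb1 rose by 1.91 and 1.76. Ctss, the protease that trims the invariant chain, measured 5.91, 7.38 and 7.65 on the normal and 10.90, 11.76 and 11.97 on the mdx arrays (4.54 ± 0.31, adjusted p = 3.16e-07), and Ifi30, a thiol reductase of the same compartment, rose by 2.46. Of 11 MHC class I genes 1 was called, B2m (0.73 ± 0.16, adjusted p = 0.0138), and its adjusted p was 0.051 without the female-pattern arrays.

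The lymphocyte, granulocyte and interferon lists held 0 calls in limma. Over all genes, the unadjusted p was under 0.05 in 2149 of 12393. Of 22 lymphocyte genes, 0 were called (unadjusted p under 0.05 in 1 of 22), and Cd3d and Cd79a, of the receptors of T and B cells, lay at or under the control level on all 12 arrays. The 8 measured lymphocyte markers had a summed linear level of 66.3 to 82.4 in normal and 66.8 to 92.1 in mdx muscle. Of 16 granulocyte and mast cell genes, 0 were called (unadjusted p under 0.05 in 1 of 16). S100a9, a neutrophil protein, was 4.03 to 5.52 on the mdx arrays, but 10.30 on normal array 4 and 5.97 on normal array 5. Its partner S100a8 was likewise 9.68 on normal array 4 and 5.29 on normal array 5. Of 27 interferon-induced genes, 23 had positive differences, against 32.2% of all genes, and 0 were called (unadjusted p under 0.05 in 9 of 27). Ifitm3, which blocks virus entry, had the smallest p (9.35 and 10.24), and the list median was 0.41.

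Of 40 measured lysosomal genes, 16 were called higher and 0 lower, with a median difference of 0.76, and 14 were called without the female-pattern arrays. Without mdx array 2 or 6, 1 was called lower. Ctss, given with MHC class II, stands in this list too. Lgmn, the asparagine endopeptidase of lysosomes, measured 5.10, 5.43 and 6.14 on the normal and 8.06, 8.57 and 9.02 on the mdx arrays (3.07 ± 0.26, adjusted p = 2.82e-06), and the cathepsin gene Ctsh 5.38, 6.02 and 6.67 on the normal and 7.97, 8.46 and 9.56 on the mdx arrays (2.60 ± 0.29, adjusted p = 4.86e-05). Progranulin, Grn, rose by 2.24, the glucuronidase Gusb by 2.08 and the carboxypeptidase Ctsz by 1.83. Among members with a high level in normal muscle, Ctsb measured 10.39, 10.85 and 11.13 on the normal and 11.53, 12.12 and 12.49 on the mdx arrays (1.31 ± 0.19, adjusted p = 0.000652), and Ctsl 10.30, 10.50 and 11.03 on the normal and 11.07, 11.56 and 12.04 on the mdx arrays (0.97 ± 0.18, adjusted p = 0.00514). Hexa, a subunit of hexosaminidase, measured 8.34, 8.91 and 9.02 on the normal and 9.61, 9.74 and 10.02 on the mdx arrays (1.01 ± 0.15, adjusted p = 0.000605). The groups did not overlap in any of these 3. The bright members Cst3, Psap and Lamp1, an inhibitor of cathepsins, an activator of hydrolases and a membrane protein, were not called, with differences of 0.20, 0.32 and -0.10. The macrophage markers given above moved with this list, and their part in it was not tested.

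**Figure D3:**
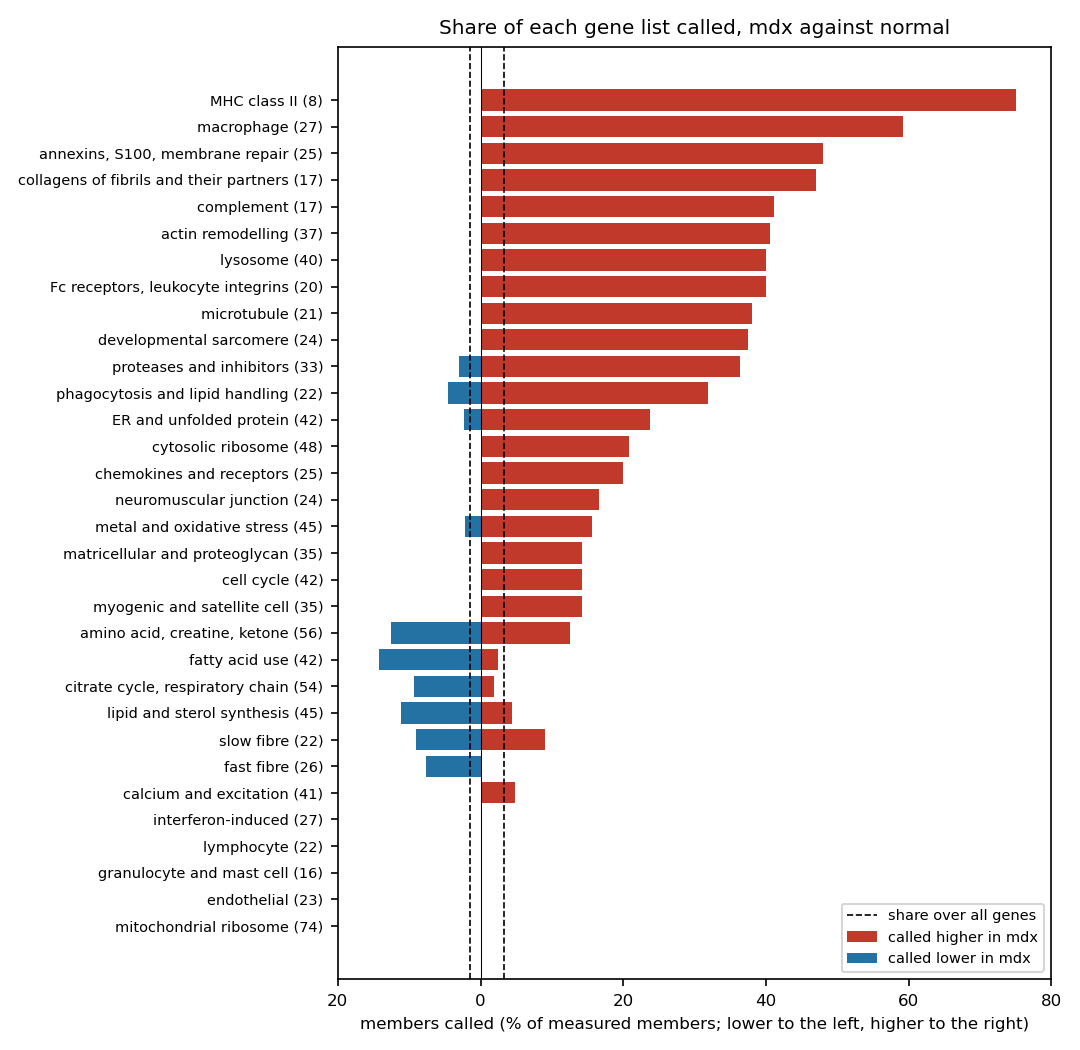
Share of the measured members of 32 gene lists called higher (red, to the right) or lower (blue, to the left) in mdx muscle, in percent, with the number of measured members in brackets; dashed lines are the shares over all genes, 3.22% and 1.44%. The lymphocyte, granulocyte, interferon, endothelial and mitochondrial ribosome lists have no bar. Some genes stand in more than 1 list, so the bars are not independent of each other. The 32 are a part of the 59 lists made, and 341 of the called genes stand in none of the 59. Lists and members were chosen with earlier results of these data known. A share above a dashed line therefore describes a list and does not test it.

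Of 17 measured genes for fibrillar collagens and their partners, 8 were called higher and 0 lower, with a median of 1.30, and 5 were called without the female-pattern arrays. Col3a1, of the thin fibrils of loose connective tissue, measured 11.53, 11.91 and 12.25 on the normal and 12.81, 13.50 and 13.74 on the mdx arrays (1.53 ± 0.23, adjusted p = 0.000949). The collagen VI genes Col6a2 and Col6a3 measured 7.77, 8.57 and 9.34 on the normal and 9.99, 10.68 and 11.20 on the mdx arrays (2.11 ± 0.37, adjusted p = 0.00275) and 7.65, 8.21 and 8.95 on the normal and 9.33, 10.20 and 10.91 on the mdx arrays (1.84 ± 0.31, adjusted p = 0.00213). The groups did not overlap in these 3 genes. The collagen V genes Col5a1 and Col5a2, which start fibrils, rose by 1.53 and 1.74, with adjusted p of 0.0884 and 0.0507 without the female-pattern arrays. The collagen I genes Col1a1 (10.46 and 11.46) and Col1a2 (11.20 and 11.99) were not called. Set 2 alone had 1 call in this list, against 7 in set 1.

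Of 35 matricellular proteins and proteoglycans, 29 had positive differences, against 32.2% of all genes, and 5 were called. The count of calls ran from 3 to 8 when 1 array was left out and was 0 without the female-pattern arrays. It was 3 without normal array 1, 2 or 5 or mdx array 1, 5 or 6, and 8 without mdx array 2. Postn, a matrix protein of injured tissue, measured 5.78, 8.80 and 9.08 on the normal and 9.03, 10.86 and 12.61 on the mdx arrays (2.77 ± 0.62, adjusted p = 0.0157), and normal array 2 was 2.24 below the next. Biglycan, Bgn, rose by 1.85 and Mgp, an inhibitor of calcification, by 1.62. Decorin, Dcn (11.73 and 11.81), Sparc (12.31 and 12.79) and fibromodulin, Fmod (10.46 and 9.93), were not called. Of 21 basement membrane genes 1 was called, Nid1, and of 17 enzymes that process and cross-link collagen 1, Loxl1, and both counts fell to 0 without the female-pattern arrays. Without mdx array 2 they rose to 4 and 3, without mdx array 3 to 3 and 2. The second count was also 3 without normal array 3 and 2 without mdx array 5. The first fell to 0 without normal array 1, 2, 5 or 6 or mdx array 1, 4 or 5, and the second without normal array 5. Of 41 genes of TGF-beta and BMP signalling 1 was called, Fstl1, a secreted glycoprotein (1.15 ± 0.27, adjusted p = 0.0214), and it was lost without normal array 2 or 5 or mdx array 1 or 4. Without normal array 3 the list held 2 called higher and 1 lower, and 1 was lower without normal array 4 or mdx array 1. Of 8 measured fibroblast markers, 2 were called, and 1 without the female-pattern arrays. The summed linear level of the 8 was 8655 to 17036 in normal and 17141 to 30530 in mdx muscle. Bright collagen genes carry much of this sum, above all Col3a1 (11.90 and 13.43, group means), while the markers Dcn, Col1a1 and Col1a2 were not called. Prg4, the lubricating proteoglycan of joints and tendon sheaths, measured 5.52, 6.93 and 7.75 on the normal and 9.52, 10.10 and 10.99 on the mdx arrays (3.27 ± 0.39, adjusted p = 9.43e-05), while the tendon gene Tnmd was not called (7.96 and 8.56).

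Proteases and their inhibitors held some of the largest changes. Of 33 measured members, 12 were called higher and 1 lower, and 8 and 1 without the female-pattern arrays. Timp1, a metalloprotease inhibitor that injured tissue secretes, lay at or under the control level on all normal arrays and at 6.39, 6.73 and 8.82 on the mdx arrays, a rise of at least 4.37 (adjusted p = 1.71e-07). The related inhibitor Timp3 moved the other way, with 7.22, 7.68 and 7.96 on the normal and 5.06, 6.13 and 6.99 on the mdx arrays (-1.5 ± 0.31, adjusted p = 0.00853). In neither gene did the groups overlap. Serpinb1a, an inhibitor of neutrophil elastase, measured 3.95, 4.21 and 4.25 on the normal and 7.11, 8.78 and 9.24 on the mdx arrays (4.32 ± 0.30, adjusted p = 4.89e-07), and Serpina3n, an inhibitor of granzyme B, rose by at least 3.56. Of the proteases, Mmp12, the elastase of macrophages, rose by at least 2.43, Adam8 by 2.16 and Mmp3 by at least 1.80. Mmp2 and Mmp14, which degrade collagen together, were called, but without mdx array 1 or normal array 2, 4 or 5 the adjusted p was over 0.05 for both, up to 0.0579 and 0.0782.

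Of 35 measured myogenic and satellite cell genes, 5 were called higher and 0 lower, and the median was 0.04. Myog, the transcription factor that commits myoblasts to differentiate, measured 3.11, 3.21 and 3.36 on the normal and 3.75, 7.51 and 9.0 on the mdx arrays. All mdx arrays stood above all normal arrays, and mdx array 2 was closest, at 3.75. The difference was 3.90 ± 0.61, adjusted p = 0.0012. Mymk, the membrane protein that fuses myoblasts, lay at or under the control level on all normal arrays and at 3.50, 5.51 and 7.21 on the mdx arrays, a rise of at least 2.69 (adjusted p = 9.53e-05). Hes6, a cofactor of myogenic differentiation, rose by at least 2.07, and Peg3, an imprinted gene of muscle stem cells, measured 7.47, 7.84 and 8.90 on the normal and 9.09, 9.92 and 10.90 on the mdx arrays (1.99 ± 0.32, adjusted p = 0.00147). The other Peg3 probe sets were not called, with differences of 1.16 and 1.52 (adjusted p = 0.421 and 0.277 over all probe sets in limma). With the mean of its probe sets Peg3 was not called (adjusted p = 0.105 in limma). Ncam1, an adhesion protein of regenerating and denervated fibres, rose by 1.02, with an adjusted p of 0.071 without the female-pattern arrays. Myod1, the determination factor, missed the threshold (adjusted p = 0.0603). With the control level in place of 3 normal arrays its difference was at least 2.22. Its mdx arrays lay at 5.25, 6.84 and 7.16, and the normal arrays were 2.61 to 2.75 in set 1 and 5.37 to 6.41 in set 2. The satellite cell marker Pax7 was 2.90 to 3.01 in normal and 2.85 to 2.94 in mdx muscle, near the control level. Within set 1 alone 13 members were called higher, and within set 2 alone 0 were higher and 1 lower.

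Embryonic and fetal forms of the contractile proteins were among the largest increases. Of 24 measured genes of the developing sarcomere, 9 were called higher and 0 lower, with a median of 0.57, and 5 were called without the female-pattern arrays. Myh3, the embryonic myosin heavy chain, measured 4.52, 4.84 and 5.67 on the normal and 8.19, 10.81 and 11.45 on the mdx arrays (5.42 ± 0.44, adjusted p = 2.55e-06). Myl4, the embryonic light chain, measured 4.73, 5.32 and 6.20 on the normal and 8.71, 10.90 and 11.86 on the mdx arrays (5.21 ± 0.47, adjusted p = 7.1e-06). The cardiac troponin T gene Tnnt2, which developing skeletal muscle also uses, measured 3.87, 4.19 and 4.68 on the normal and 6.54, 9.90 and 10.38 on the mdx arrays (5.02 ± 0.50, adjusted p = 1.8e-05). In each of the 3 genes mdx array 2 had the lowest mdx value, yet stood above every normal array. Tnni1, the troponin I of slow and of developing fibres, rose by 4.16 (adjusted p = 0.00024). Myh8, the neonatal heavy chain, measured 4.74, 5.44 and 5.80 on the normal and 5.48, 8.34 and 11.44 on the mdx arrays. Its call (2.79 ± 0.70, adjusted p = 0.0302) was lost without normal array 1, 2, 5 or 6 or mdx array 1, 3 or 5, with an adjusted p up to 0.0671. The titin gene Ttn (14.50 and 14.31), Mylpf (14.29 and 14.38) and the desmin gene Des (11.66 and 12.02), which all fibres use, were not called.

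The receptor for acetylcholine at the neuromuscular junction changed along with Myog. Of 24 measured junction genes, 4 were called higher and 0 lower, and 3 without the female-pattern arrays; 2 of the 4, Myog and Ncam1, stand in the myogenic list too. Chrna1, the alpha subunit, measured 5.26, 5.53 and 6.27 on the normal and 7.68, 8.59 and 9.64 on the mdx arrays (3.08 ± 0.32, adjusted p = 2.17e-05), and Chrnb1, the beta subunit, 7.56, 7.94 and 8.32 on the normal and 8.38, 9.12 and 9.71 on the mdx arrays (1.19 ± 0.23, adjusted p = 0.00564). Neither overlapped between groups, and mdx array 2 had the lowest mdx value of Chrna1. The fetal gamma subunit Chrng was not called (3.17 and 4.55), though every mdx array lay above every normal array (1.38 ± 0.42, adjusted p = 0.0772).

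The promoters of Myog and Chrna1, 2 genes that rose together, are shown because both are known to carry E-boxes, the sites of the myogenic factors. Each window holds the 250 bases before the gene's start on its own strand, from RefSeq on build GRCm38.p6, with each CANNTG on either strand in capitals. Those for Myog (chr1:134289754-134290003, plus strand) and Chrna1 (chr2:73580339-73580588, minus strand) read as follows.
Myog: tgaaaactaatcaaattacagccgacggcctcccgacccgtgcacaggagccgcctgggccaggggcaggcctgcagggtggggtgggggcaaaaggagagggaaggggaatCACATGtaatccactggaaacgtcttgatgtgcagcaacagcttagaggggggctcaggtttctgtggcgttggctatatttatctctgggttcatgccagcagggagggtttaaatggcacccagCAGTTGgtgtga
Chrna1: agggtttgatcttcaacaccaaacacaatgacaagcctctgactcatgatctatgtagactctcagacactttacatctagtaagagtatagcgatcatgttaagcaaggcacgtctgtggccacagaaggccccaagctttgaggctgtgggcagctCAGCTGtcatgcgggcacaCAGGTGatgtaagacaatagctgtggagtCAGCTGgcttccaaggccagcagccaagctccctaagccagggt
The Myog window holds 2 matches and the Chrna1 window 3, and 31.8% and 12.2% of all 32851 windows of this length hold at least as many. The form CAGCTG, a subset of CANNTG, occurs 2 times in Chrna1 and 0 times in Myog, and 1.26% of all windows hold at least 2. A match describes the letters only, and the arrays measured no binding.

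Actin and microtubule genes included many that were called higher. Of 37 measured genes of actin remodelling, 15 were called higher and 0 lower, with a median of 0.78 and 15 without the female-pattern arrays. S100a4, given with the annexins, stands in this list too. Tmsb10 and Tmsb4x, small proteins that hold actin monomers, measured 9.02, 9.49 and 10.29 on the normal and 11.97, 12.80 and 13.33 on the mdx arrays (3.25 ± 0.28, adjusted p = 3.32e-06) and 11.33, 11.57 and 11.89 on the normal and 12.16, 12.34 and 12.58 on the mdx arrays (0.78 ± 0.14, adjusted p = 0.00275). Lcp1, the actin bundler of leukocytes, measured 5.53, 5.60 and 6.41 on the normal and 8.09, 8.70 and 9.24 on the mdx arrays (2.84 ± 0.22, adjusted p = 1.44e-06). Capg, which caps filaments in macrophages, rose by 2.36, the non-muscle cofilin Cfl1 by 1.66 and the actin nucleator subunit Arpc2 by 0.79. The macrophage markers moved with Lcp1 and Capg, and their part was not tested. The muscle cofilin Cfl2 (11.62 and 11.69) and gelsolin, Gsn (12.93 and 13.02), were not called. Of 21 microtubule genes 8 were called higher and 0 lower, 7 without the female-pattern arrays. The beta tubulin Tubb6 measured 4.55, 4.99 and 5.81 on the normal and 8.36, 9.45 and 10.71 on the mdx arrays (4.46 ± 0.36, adjusted p = 1.99e-06), Tubb2b 4.37, 4.86 and 5.23 on the normal and 6.01, 8.70 and 9.64 on the mdx arrays (3.39 ± 0.47, adjusted p = 0.000385) and Tubb5 5.79, 6.03 and 6.6 on the normal and 6.98, 7.85 and 8.71 on the mdx arrays (1.71 ± 0.27, adjusted p = 0.00133). Tuba4a, an alpha tubulin abundant in mature muscle, stayed uncalled (12.87 and 12.87). Of 31 genes of the costamere, which fixes the sarcomere to the membrane, 1 was called higher and 3 lower. The vinculin gene Vcl rose by 0.70 (adjusted p = 0.00669, and 0.0513 without the female-pattern arrays), and Lims2, an adaptor of integrin adhesions, fell (-0.71 ± 0.16, adjusted p = 0.0147). The count of 3 lower became 1 without normal array 1, 4 or 6 or mdx array 1, and the higher count 2 without normal array 6 or mdx array 3.

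Annexins and S100 proteins bind calcium, and annexins gather at torn membranes. Of 25 measured members of the annexin, S100 and membrane repair list, 12 were called higher and 0 lower, with a median of 0.67 and 11 without the female-pattern arrays. Anxa2 measured 7.75, 8.30 and 8.82 on the normal and 9.94, 10.33 and 10.87 on the mdx arrays (2.06 ± 0.26, adjusted p = 0.000168), Anxa4 4.77, 5.62 and 6.43 on the normal and 7.77, 8.06 and 8.64 on the mdx arrays (2.51 ± 0.27, adjusted p = 4.5e-05) and Anxa5 8.51, 8.90 and 9.26 on the normal and 9.84, 10.08 and 10.58 on the mdx arrays (1.24 ± 0.18, adjusted p = 0.000652). S100a4 measured 5.79, 6.17 and 7.55 on the normal and 9.81, 10.45 and 11.04 on the mdx arrays (3.98 ± 0.33, adjusted p = 2.66e-06), S100a6 9.21, 9.97 and 10.29 on the normal and 11.23, 11.57 and 12.42 on the mdx arrays (1.74 ± 0.25, adjusted p = 0.000538) and S100a10, the partner of annexin A2, 7.60, 8.49 and 8.91 on the normal and 9.51, 9.86 and 10.32 on the mdx arrays (1.48 ± 0.22, adjusted p = 0.000733). No normal array reached the mdx range in these 6 genes. Cavin4, a coat protein of muscle caveolae, rose by 0.66. S100a1, the form of mature muscle fibres (9.78 and 9.74), Anxa6 (8.97 and 9.45) and Cav1 (10.44 and 10.50) were not called. Several members are expressed by leukocytes and fibroblasts too, and the part of those cells was not tested.

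**Figure D4:**
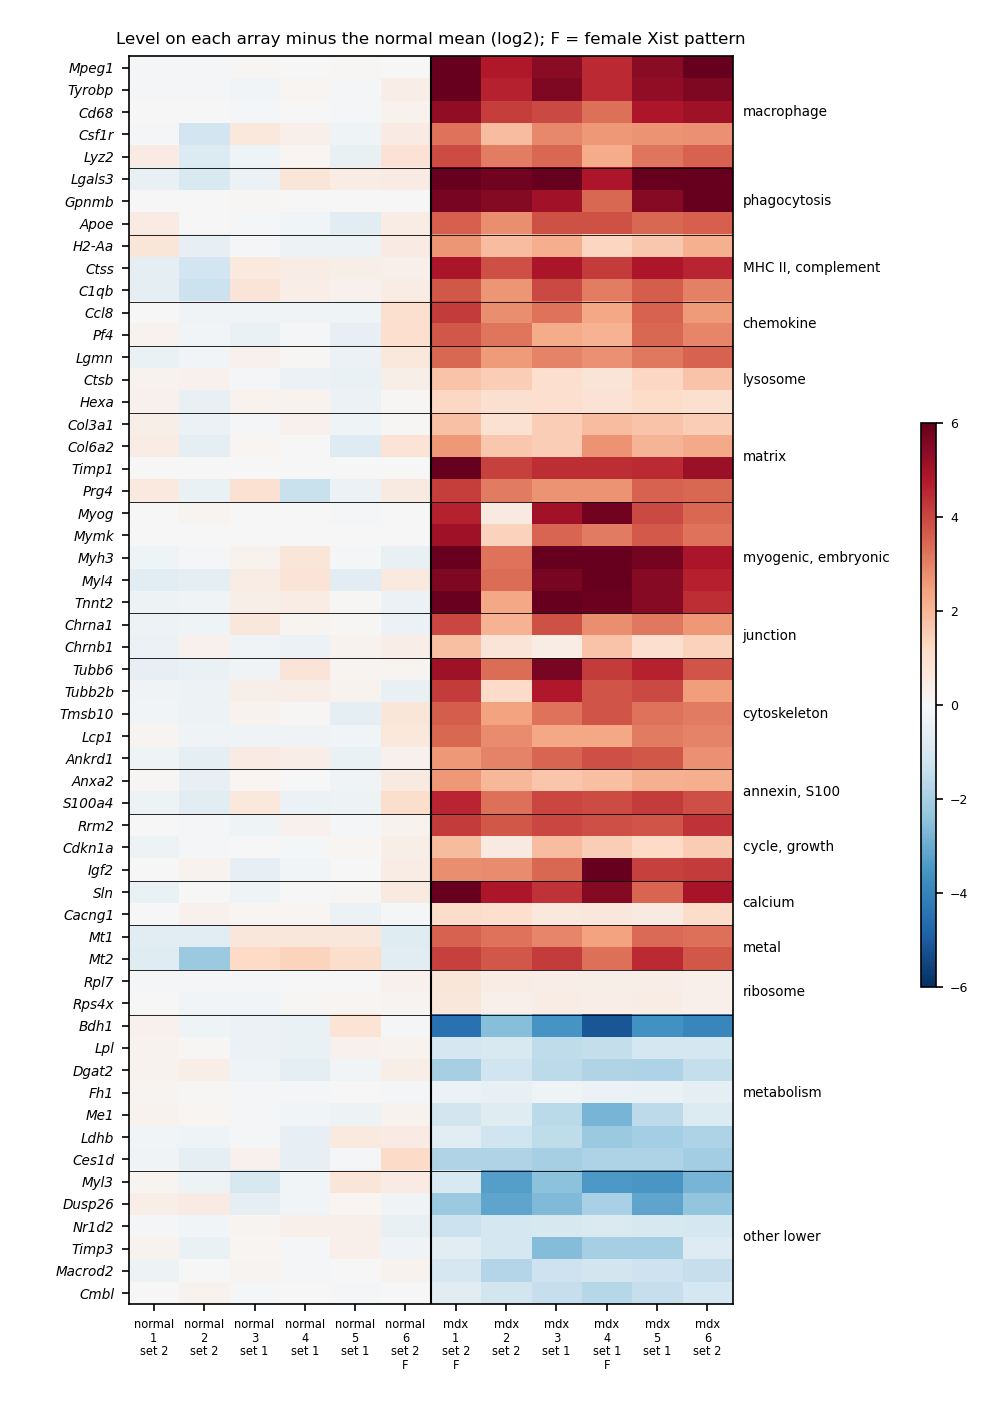
Level of 56 genes on each of the 12 arrays minus the mean of the normal arrays (log2; red higher, blue lower, colour full at 6 in size), with rows grouped by role and columns in order of group and replicate number. Myog and Tnnt2 are palest on mdx array 2 among the mdx arrays, and Rrm2 and Ces1d are nearly even across the 6 mdx arrays.

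Of 42 measured cell cycle genes, 6 were called higher and 0 lower, with a median of 0.26 and 4 without the female-pattern arrays. Rrm2, the subunit of ribonucleotide reductase that dividing cells make, measured 3.00, 3.23 and 3.55 on the normal and 7.02, 7.21 and 7.63 on the mdx arrays (3.99 ± 0.12, adjusted p = 2.21e-11). The mdx arrays lay within 0.61 of each other on this probe set. Another Rrm2 probe set rose by 2.13 (adjusted p = 6.15e-07 over all probe sets in limma). The remaining one, at 3.28 and 3.40 (group means), had a difference of 0.12 (adjusted p = 0.346). Cdkn1a, the p21 inhibitor that rises when myoblasts leave the cycle, measured 6.32, 6.59 and 6.96 on the normal and 7.16, 8.12 and 8.54 on the mdx arrays (1.41 ± 0.21, adjusted p = 0.000613), and the replication clamp Pcna rose by 0.90 (adjusted p = 0.0882 without the female-pattern arrays). Of 45 genes of growth factor signalling, 1 was called higher and 1 lower. The higher count became 2 without mdx array 2, and the lower count 2 without mdx array 4 or 6. Igf2, the growth factor of fetal muscle, measured 5.03, 5.54 and 6.00 on the normal and 8.33, 9.29 and 11.64 on the mdx arrays (3.90 ± 0.51, adjusted p = 0.000238), and mdx array 4 stood highest. Dusp26, a phosphatase, measured 9.0, 9.56 and 10.08 on the normal and 6.41, 7.08 and 7.66 on the mdx arrays (-2.59 ± 0.23, adjusted p = 5.46e-06), and its groups stood 1.34 apart. The insulin receptor substrate Irs1 (10.46 and 10.43) and the binding protein Igfbp5 (10.93 and 10.45) were not called. Of 43 genes of Wnt, Notch and Hippo signalling, 2 were called higher and 1 lower. Ankrd1, a stretch-responsive protein of the sarcomere and nucleus and a target of Hippo signalling, measured 5.75, 6.32 and 6.81 on the normal and 8.93, 9.54 and 10.17 on the mdx arrays (3.23 ± 0.27, adjusted p = 2.8e-06), and the member called lower was lost without any of 10 single arrays.

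Of 26 measured fast fibre genes, 0 were called higher and 2 lower, with a median of -0.13. Skeletal actin, Acta1, was 15.24 and 15.20 (group means), and the fast troponin I Tnni2 15.24 and 15.19. The markers of fast fibres had a summed linear level of 210270 to 240780 in normal and 187100 to 216910 in mdx muscle, and of the 9, 1 was called lower. Myot, a protein of the Z disc, measured 13.13, 13.26 and 13.34 on the normal and 12.59, 12.85 and 13.12 on the mdx arrays (-0.41 ± 0.08, adjusted p = 0.00768). Myh2, the myosin of fast oxidative fibres, measured 12.76, 13.43 and 14.25 on the normal and 8.89, 11.05 and 12.70 on the mdx arrays (-2.40 ± 0.60, adjusted p = 0.0288). Its groups did not overlap, yet the call was lost without normal array 3, 4, 5 or 6 or mdx array 2, 3 or 5, with an adjusted p up to 0.0699. Of 22 slow fibre genes, 2 were called higher and 2 lower, with a median of -0.07, and 4 were higher without mdx array 2. The largest rise in this list was that of Tnni1, given above, by 4.16. Of 8 slow fibre markers, 2 were called higher and 1 lower, with a median difference of 1.16. Their summed linear level was 1367.5 to 3408.7 in normal and 1060.9 to 4439.2 in mdx muscle. Myl3, the slow light chain, measured 9.22, 10.19 and 10.91 on the normal and 6.69, 7.13 and 9.26 on the mdx arrays (-2.73 ± 0.46, adjusted p = 0.00223), and mdx array 1, at 9.26, was the 1 array within the normal range. Ldhb, the lactate dehydrogenase of oxidative fibres, measured 9.93, 10.29 and 11.01 on the normal and 8.20, 8.74 and 9.74 on the mdx arrays (-1.59 ± 0.31, adjusted p = 0.00566). Of 39 transcription factors and regulators of fibre type, 0 were called in limma (unadjusted p under 0.05 in 12 of 39).

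In fatty acid use and the citrate cycle most members had negative differences and few were called. Of 42 measured genes of fatty acid use, 39 had negative differences, against 67.8% of all genes. The list median was -0.49, and 6 genes were called lower, 5 of them by at least 2-fold, and 1, Plin2, higher. With the array set as a block 18 were called lower, and without the female-pattern arrays 2. The set was drawn from the residuals of these values, so calls with the block are favoured by construction. Dgat2, which makes triglyceride, measured 6.42, 7.04 and 7.44 on the normal and 5.02, 5.35 and 5.82 on the mdx arrays (-1.64 ± 0.25, adjusted p = 0.000807) with no overlap. Ucp3, a carrier of the inner mitochondrial membrane, measured 7.66, 8.89 and 10.12 on the normal and 5.85, 7.02 and 7.95 on the mdx arrays (-1.91 ± 0.43, adjusted p = 0.0149, and an adjusted p of 0.0936 without the female-pattern arrays). Fabp3, the fatty acid carrier of muscle (11.96 and 11.35), and Hadh, an enzyme of beta oxidation (12.51 and 12.21), were not called. Of 54 genes of the citrate cycle and the respiratory chain, 49 had negative differences, with a median of -0.20. Called lower were 5 and higher 1, and without the female-pattern arrays 1 and 0. With the set as a block 14 were lower. Fumarase, Fh1, measured 11.87, 11.92 and 12.11 on the normal and 11.41, 11.58 and 11.71 on the mdx arrays (-0.39 ± 0.08, adjusted p = 0.00566). Its groups were 0.16 apart, and every mdx array was lower. The 2 subunits of the enzyme that makes succinate from succinyl-CoA, Suclg1 (-0.46 ± 0.11, adjusted p = 0.0182) and Suclg2 (-1.13 ± 0.25, adjusted p = 0.0147), were lower, with adjusted p of 0.148 and 0.126 without the female-pattern arrays. Mdh2 (13.92 and 13.83) was not called. Of 74 genes of the mitochondrial ribosome, 0 were called in limma (unadjusted p under 0.05 in 4 of 74), and their median was -0.02.

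Glucose, amino acid and lipid metabolism gave calls in both directions. Of 38 genes of glycolysis and glycogen, 2 were called higher and 2 lower. Pgd, of the pentose phosphate pathway, measured 6.94, 7.25 and 7.65 on the normal and 8.23, 8.72 and 9.68 on the mdx arrays (1.5 ± 0.24, adjusted p = 0.00156), and Pgam1, the phosphoglycerate mutase of non-muscle cells, rose by 1.43. Phkg1, the catalytic subunit of muscle phosphorylase kinase, fell (-0.94 ± 0.18, adjusted p = 0.00614), and the muscle aldolase Aldoa (15.34 and 15.28) was not called. Of 56 genes of amino acid, creatine and ketone body metabolism, 7 were called higher and 7 lower, and 5 and 2 without the female-pattern arrays. The 7 lower became 3 without normal array 5 and 4 without normal array 6 or mdx array 1, 4 or 6. Bdh1, which interconverts ketone bodies, measured 6.71, 6.95 and 7.97 on the normal and 2.00, 3.35 and 4.56 on the mdx arrays, and 2 mdx arrays did not exceed the control level. With the control level in their place the difference was -3.75 (adjusted p = 0.00013), the largest decrease of all genes. Gatm and Gamt, the enzymes of creatine synthesis, measured 3.17, 3.38 and 3.53 on the normal and 4.49, 5.67 and 7.48 on the mdx arrays (2.57 ± 0.40, adjusted p = 0.00122) and 5.98, 6.23 and 6.72 on the normal and 6.86, 7.99 and 8.99 on the mdx arrays (1.68 ± 0.28, adjusted p = 0.00195), and both groups stood apart. The muscle creatine kinase Ckm was not called (14.65 and 14.50). Sat1, which breaks down polyamines, and Azin1, which protects the enzyme that makes them, rose by 1.52 and 1.33.

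Of 45 genes of lipid and sterol synthesis, 2 were called higher and 5 lower, and 2 and 3 without the female-pattern arrays. Ces1d, a carboxylesterase that hydrolyses lipids, measured 6.07, 6.48 and 7.81 on the normal and 4.59, 4.80 and 4.86 on the mdx arrays (-1.89 ± 0.23, adjusted p = 0.000118), and all 6 mdx arrays lay within 0.28 of each other. Ephx2, a soluble epoxide hydrolase, measured 7.0, 7.36 and 7.63 on the normal and 5.51, 6.18 and 6.76 on the mdx arrays (-1.22 ± 0.21, adjusted p = 0.00266), and Scd1, a fatty acid desaturase, 7.89, 9.27 and 10.62 on the normal and 7.21, 7.65 and 8.35 on the mdx arrays (-1.53 ± 0.34, adjusted p = 0.016) with 4 of 6 mdx arrays below all normal arrays. Alox5ap, which leukocytes need to make leukotrienes, rose by 2.04 (adjusted p = 0.0017). The count of 2 higher became 4 without mdx array 2, and the 5 lower became 3 without normal array 1, 2 or 6 or mdx array 1, 3 or 4. Of 15 adipocyte genes, 3 were called lower, the genes Dgat2, Scd1 and Lpl given above, and Adipoq, a hormone of fat cells, was not called (6.90 and 5.05). The 5 measured fat cell markers summed to 5066 to 10547 in normal and 4960 to 10132 in mdx muscle, and Lep was at or under the control level on all 12 arrays. Nearly all of this linear sum was Fabp4 (12.79 and 12.62, group means), which endothelium and fibres hold too. The sum therefore does not show the level of dimmer markers such as Adipoq. Me1, the malic enzyme that supplies NADPH, measured 9.01, 9.31 and 9.53 on the normal and 6.52, 7.97 and 8.59 on the mdx arrays (-1.43 ± 0.27, adjusted p = 0.00556).

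Of 41 measured genes of excitation and calcium handling, 2 were called higher and 0 lower (1 without mdx array 1), with a median of -0.17. Sln, a small inhibitor of the calcium pump of the sarcoplasmic reticulum, lay at 2.16, 2.56 and 3.10 on the normal arrays, 5 of them at or under the control level, and at 6.02, 7.45 and 9.09 on the mdx arrays. The rise was at least 4.64 (adjusted p = 1.37e-05). Cacng1, the gamma subunit of the voltage-gated calcium channel, measured 8.78, 9.16 and 9.40 on the normal and 9.69, 9.98 and 10.25 on the mdx arrays (0.85 ± 0.13, adjusted p = 0.000898). The fast calcium pump Atp2a1 (14.45 and 14.22), the release channel Ryr1 (13.21 and 12.62) and calsequestrin, Casq1 (12.84 and 12.84), were not called.

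Of 45 measured genes of metal and oxidative stress, 7 were called higher and 1 lower, and 2 were lower without normal array 2. The metallothioneins Mt1 and Mt2, small cysteine-rich proteins that bind zinc and copper, measured 7.08, 7.80 and 8.50 on the normal and 10.21, 11.09 and 11.34 on the mdx arrays (3.14 ± 0.31, adjusted p = 1.37e-05) and 5.19, 7.59 and 8.73 on the normal and 10.72, 11.32 and 11.86 on the mdx arrays (3.92 ± 0.52, adjusted p = 0.00024). All mdx arrays lay above all normal arrays for both genes, and within the normal group set 2 was lower than set 1, with Mt2 at 5.19 on normal array 2. Gpx1, which reduces hydrogen peroxide, measured 9.12, 9.43 and 9.75 on the normal and 10.03, 10.91 and 11.32 on the mdx arrays (1.45 ± 0.23, adjusted p = 0.00125), and thioredoxin, Txn1, rose by 0.95 on the probe set used and had -0.03 on another, at 3.95 and 3.92 (group means). Txnip, the inhibitor of thioredoxin, fell (-1.21 ± 0.23, adjusted p = 0.00435, and an adjusted p of 0.0535 without the female-pattern arrays). The ferritin heavy chain Fth1 was not called (13.71 and 13.56).

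The promoters of Mt1 and Mt2 are shown because these neighbouring genes moved together and are known to be switched on by zinc through metal response elements. The windows are the 250 bases before each start on build GRCm38.p6, from RefSeq, for Mt1 (chr8:94178839-94179088, plus strand) and Mt2 (chr8:94172368-94172617, plus strand). Capitals mark TGCACNC and TGCGCNC, forms of the core of that element, on either strand.
Mt1: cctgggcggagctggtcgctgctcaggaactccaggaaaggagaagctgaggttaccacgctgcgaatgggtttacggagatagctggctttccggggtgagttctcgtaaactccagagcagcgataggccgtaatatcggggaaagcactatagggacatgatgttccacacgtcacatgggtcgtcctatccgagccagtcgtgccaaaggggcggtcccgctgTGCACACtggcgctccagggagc
Mt2: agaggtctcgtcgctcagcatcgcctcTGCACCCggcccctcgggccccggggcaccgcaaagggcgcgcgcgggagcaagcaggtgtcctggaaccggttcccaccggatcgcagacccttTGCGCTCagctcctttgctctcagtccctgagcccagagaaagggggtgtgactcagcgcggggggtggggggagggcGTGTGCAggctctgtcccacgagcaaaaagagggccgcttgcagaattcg
The Mt1 window holds 1 match and the Mt2 window 3, and 21.4% and 1.26% of all windows hold at least as many. Bases after the start were not searched.

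Of 42 genes of the endoplasmic reticulum and the unfolded protein response, 10 were called higher and 1 lower, with 5 and 0 without the female-pattern arrays. The count of 10 became 6 without normal array 2 or mdx array 4. Serp1 and Ssr1, of the site where new proteins enter the reticulum, rose by 1.30 (adjusted p = 0.00124) and 1.37 (adjusted p = 0.00299), and another Ssr1 probe set, at 4.08 and 3.27 (group means), had a difference of -0.81 (adjusted p = 0.25 over all probe sets). The chaperones Hspa5 (10.03 and 10.76) and Calr (10.17 and 10.78) were not called. Chac1, a glutathione-degrading enzyme of the stress response, went the other way, with 7.23, 7.88 and 9.42 on the normal and 4.97, 5.75 and 7.12 on the mdx arrays (-2.17 ± 0.49, adjusted p = 0.0176, and 0.071 without the female-pattern arrays). Of 48 genes of the cytosolic ribosome, 40 had positive differences, against 32.2% of all genes, with a median of 0.33. Called higher were 10, all by less than 1. The count was 5 without normal array 1 or the female-pattern arrays, 6 without mdx array 1, 16 in set 1 and 0 in set 2. Rpl7 measured 11.76, 11.82 and 12.11 on the normal and 12.18, 12.26 and 12.59 on the mdx arrays (0.43 ± 0.07, adjusted p = 0.00111) and Rps4x 11.54, 11.73 and 11.89 on the normal and 12.02, 12.12 and 12.39 on the mdx arrays (0.43 ± 0.08, adjusted p = 0.00427), both with no overlap. Of 36 proteasome genes, 0 were called in limma (unadjusted p under 0.05 in 9 of 36), and of 34 genes of atrophy and autophagy, 3 rose and 2 fell. The 2 became 0 without normal array 1 or 4, mdx array 1 or 4 or the female-pattern arrays, 1 without normal array 3 or 6 or mdx array 3 or 5, and 4 without mdx array 2. Capn2, a calcium-activated protease, rose (0.85 ± 0.15, adjusted p = 0.00266).

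Of 19 clock genes, 17 had negative differences, against 67.8% of all genes, with a median of -0.35. Of the 2 called, Nr1d2, a nuclear receptor that represses clock genes, measured 10.09, 10.57 and 10.86 on the normal and 9.27, 9.54 and 9.67 on the mdx arrays (-1.04 ± 0.17, adjusted p = 0.0017) with no overlap, and Rora was lost without any 1 array. No label gives the hour of sampling. Of 27 immediate early genes, 1 was called, Gadd45b, a stress sensor, which fell (-0.96 ± 0.20, adjusted p = 0.0111). Ppp1r1a, a phosphatase inhibitor controlled by cyclic AMP, measured 6.27, 6.66 and 8.09 on the normal and 5.01, 5.59 and 5.66 on the mdx arrays (-1.37 ± 0.28, adjusted p = 0.00944), with mdx array 5 lowest at 5.01. Asb4, a subunit of a ubiquitin ligase, measured 5.98, 6.24 and 6.59 on the normal and 4.70, 4.87 and 5.35 on the mdx arrays (-1.35 ± 0.20, adjusted p = 0.000749), and Macrod2, which removes ADP-ribose from proteins, 5.45, 5.75 and 5.96 on the normal and 3.96, 4.49 and 4.76 on the mdx arrays (-1.30 ± 0.15, adjusted p = 6.74e-05). Cmbl, a hydrolase, measured 10.06, 10.17 and 10.37 on the normal and 8.46, 8.93 and 9.53 on the mdx arrays (-1.21 ± 0.14, adjusted p = 6.07e-05), and Gpcpd1, which cleaves glycerophosphocholine, 10.96, 11.18 and 11.32 on the normal and 8.35, 10.02 and 10.13 on the mdx arrays (-1.61 ± 0.30, adjusted p = 0.00436). In each of these 4 genes every mdx array lay below every normal array. The glutamate receptor scaffold Homer2 measured 5.60, 6.30 and 7.66 on the normal and 3.29, 4.29 and 5.82 on the mdx arrays (-1.86 ± 0.43, adjusted p = 0.0197), with 4 of 6 mdx arrays below all normal ones. S1pr1, a receptor for sphingosine 1-phosphate on endothelium and other cells, fell (-1.30 ± 0.26, adjusted p = 0.00721).

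The 7 endothelial markers summed to 782 to 1833 in normal and 620 to 1367 in mdx muscle, with 0 of 7 called in limma. Of the 7 markers of smooth muscle and pericytes 1, Rgs5, was lower (-0.56 ± 0.11, adjusted p = 0.00669, and 0.0841 without the female-pattern arrays), and their sums were 6097 to 7420 and 4736 to 6205. The 5 Schwann cell markers summed to 818 to 1210 and 410 to 1158, and the 5 satellite cell markers to 81.5 to 119.98 and 86.9 to 173.9, with 0 called in either. Of 5 epidermal markers, Krt14 and Krt1 lay at or under the control level on all 12 arrays, and so did Hba-a1 and Alas2 of 3 red cell markers.

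Differences within the array sets had the same direction for all 578 called genes but not the same size. Over the genes called higher, the median difference was 1.34 in set 1 and 1.38 in set 2, and over those called lower it was -0.76 and -0.79. Of the 578, 258 were larger in set 1. Myog rose by 4.96 in set 1 and 2.83 in set 2, Igf2 by 4.76 and 3.05, Myh3 by 5.81 and 5.04, and Ctss by 4.18 and 4.91. A test of the difference between the sets on the 12 arrays in limma gave 18 genes with an adjusted p below 0.05, and 0 of these were among the 578. The 578 were called on these same arrays without a term for the set, which favours genes with like differences in both sets. The equal signs and the count of 0 therefore do not test whether a difference repeats across sets.

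**Figure D5:**
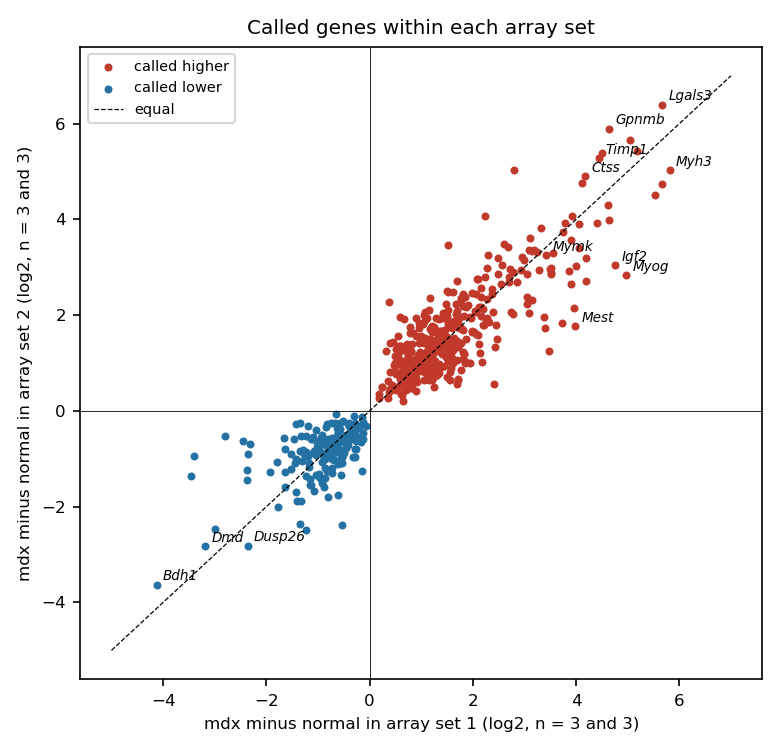
Difference between mdx and normal muscle (log2) in array set 2 (vertical axis) against that in array set 1 (horizontal axis), 3 arrays per group in each set, for the 399 genes called higher (red) and the 179 called lower (blue). All points lie in the quadrants of equal sign, which the calling of these genes on the same arrays favours, and the dashed line marks equal differences.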

How the data were processed

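RNA of tibialis anterior muscle was hybridised to Affymetrix mouse arrays in the one-cycle biotin protocol, per the labels' protocols. The log2 values were deposited by the authors as 1 table, and the submitters' processing notes name RMA and GCRMA without saying which made it. They were used with no further normalization. Of 22626 probe sets that are not controls, 20380 had 1 gene symbol in the platform annotation, 691 several and 1555 none. Where several probe sets shared a symbol, the one of highest average level across the 17 arrays stood for the gene, which left 12393 genes.

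The arrays were fitted in limma 3.58.1 (R 4.3.3) with 3 group means, so that all 17 arrays share the estimate of the spread, and the contrast mdx minus normal was adjusted over 12393 genes. The script was tested on simulated data. Alternatives changed the arrays, normalization, probe set rule, filter, blocks and control level. The number of arrays limits the precision. The sets of arrays and the female pattern were found in the values. The control level is the median of 15 unspiked bacterial control probe sets on each array.

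The members and lists were chosen with earlier results of these data known, so shares of calls in a list are not independent of these data. There were 59 lists, and 341 of the called genes stand in none of them. Named were Dmd, Xist, Eif2s3y, genes from the 30 largest increases and 30 largest decreases, and, in each list, up to 8 called members with the largest difference, up to 3 uncalled members with the highest mean and the smallest p where none was called. Named outside this rule, after their values were seen, were Adgre1, Adipoq, Alas2, Arpc2, Camp, Cavin4, Cd3d, Cdkn1c, Chrng, Cmbl, Col2a1, Csf1r, Ctsb, Hba-a1, Hexa, Krt1, Krt14, Lep, Meg3, Mest, Mmp14, Mmp2, Mrc1, Myod1, Ngp, Pax7, Plagl1 and Tmsb4x.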

Additional observations from a re-analysis of the deposited data

Results flagged for a closer look

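The 218 genes named gave 436 groups of 6 arrays over both genotypes, and groups wholly at or under the control level were left out. In 31 cases 1 array lay so far from the others of its group that it was marked. Its gap to the nearest, as a share of the group's range, exceeded Dixon's critical value for 6 values. Chance alone marks about 1 in 20 of the groups tested, which were fewer than 436. Values are log2 levels, each followed by that of the nearest other array of the group where it helps.

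Many of the marked values were on mdx array 1. It was highest for H2-Eb1 (9.27, next 8.29), Cd52 (8.43, next 6.72), S100a6 (12.42, next 11.61), Txn1 (11.62, next 10.86), Pgam1 (9.66, next 8.70), Rpl7 (12.59, next 12.29), S100a8 (3.80, next 3.13) and S100a9 (5.52, next 4.17). The same array was lowest for C1qa (6.40, next 8.48) and Cd36 (8.84, next 10.15). C1qa thus went against C1qb and C1qc, the other chains of C1q, which were 11.33 and 8.96 on this array.

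On mdx array 4 the imprinted RNA Meg3 was high (12.58, next 9.78), and Igfbp5 (8.95, next 10.59), Cst3 (11.24, next 12.33), Fth1 (13.30, next 13.55) and Tuba4a (12.64, next 12.85) were low. On mdx array 2 Apoe (9.63, next 10.31) and Irs1 (10.05, next 10.43) were low, and on mdx array 5 Ppp1r1a was low (5.01, next 5.49).

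Normal array 4 was high in neutrophil genes, with S100a8 at 9.68, S100a9 at 10.30, Camp at 6.77 and Ngp at 5.20, and in the cartilage collagen Col2a1 at 5.89, while it was low in Cav3 at 7.67. Normal array 6, an array with the female pattern, was high in Xist (7.78), Ccl8 (5.10), Cd52 (4.29) and Rpl7 (12.11) and low in Msr1 (3.74). Postn was low on normal array 2 at 5.78, and Cdkn1c on normal array 5 at 5.61.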

How the results depend on the processing

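The 153 called genes named in the text kept their direction under each of the 24 alternatives run on single genes. Of them, 125 stayed called without the female-pattern arrays, 131 in array set 1 alone and 73 in set 2 alone. Of the 65 named genes that were not called, 9 became called with the array set as a block, 8 after median centring and 5 in set 1 alone. A gene that was not called was thus not shown to be unchanged. The array sets were drawn from the residuals of these same values, so the 9 calls with the block are favoured by construction. Of 578 genes called, the count became 1238 with the array set as a block, 2565 in set 1 alone, 272 in set 2 alone, 370 without the female-pattern arrays, 2017 after median centring and 913 with every probe set taken singly (of 22626). Taking probe sets singly tests more features, and the block on the array set lowers the spread by construction. For the others the cause was not tested. Genes called at 2-fold or more numbered 335, against 188 in set 2 alone and 503 with probe sets taken singly. The Dmd probe set 1430320_at was called in set 1 alone, at -0.22. Leaving out 1 array gave 441 (without normal array 2) to 692 genes (without mdx array 2), and 279 to 418 at 2-fold or more. The count was 531 with the 12 mdx and normal arrays only, 736 after quantile normalization, 681 of 9192 genes after a filter on dim genes, 589 with trend and robust variance, 708 with the mean of a gene's probe sets and, in an alternative chosen after seeing the data, 582 with low values set to the control level. With the replicate number as a block 798 genes were called, 474 higher and 324 lower, and 411 of the 578 stayed called. Of the 153 named genes 18 lost their call, Capn2, Chac1, Chrnb1, Gadd45b, Homer2, Il13ra1, Lims2, Mest, Mmp14, Mmp3, Myh2, Myh8, Ncam1, Nid1, Phkg1, S1pr1, Scd1 and Timp3, with adjusted p of 0.0504 to 0.103. The numbers were not taken to pair the samples, since 1 pair stayed under a correlation of 0.1: deviations of same-numbered normal and mdx arrays correlated at 0.088 in that pair and at 0.344 to 0.605 in the 5 others, and 1 of 6 normal arrays correlated best with its own number.

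Genes near the control level have compressed differences, and 3038 of 12393 genes lay at or under it in both group means. Signal that low limits what can be said of lymphocyte, cytokine and satellite cell genes.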

Other observations

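Imprinted genes, which are expressed from the allele of 1 parent and many of which are active in fetal and regenerating muscle, were looked at after their values had been seen. Of 17 measured, 4 were called higher and 1 lower, with a median difference of 0.69. Igf2 and Peg3 are described with the growth and myogenic genes. Mest, a hydrolase of growing mesoderm, measured 4.03, 4.28 and 4.62 on the normal and 4.73, 6.98 and 10.26 on the mdx arrays (2.87 ± 0.68, adjusted p = 0.0214), and its call was lost without mdx array 3. Plagl1, a zinc finger factor that regulates other imprinted genes, measured 5.41, 5.89 and 6.67 on the normal and 6.55, 8.41 and 10.96 on the mdx arrays (2.57 ± 0.60, adjusted p = 0.0204), and its call was lost without normal array 2. The gene called lower was Asb4.

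Several of these genes were highest on the same array. On mdx array 4 Igf2 was 11.64, Mest 10.26, Plagl1 10.96, Peg3 10.90, the cell cycle inhibitor Cdkn1c 9.22 and the noncoding RNA Meg3 12.58, in each case the top of the 12 arrays. On mdx array 2 they were 8.36, 4.73, 6.55, 9.09, 6.34 and 8.29. Of the other imprinted genes measured, Dlk1, Ndn and Grb10 were also highest on mdx array 4. Gnas, Sgce, Igf2r, Asb4, Snrpn, Impact, Nnat and Peg10 were highest on other arrays. Cdkn1c and Meg3 were not called (1.37 ± 0.40, adjusted p = 0.0647 and 0.83 ± 0.54, adjusted p = 0.378). Array 4 has the female pattern, and its part in these values was not tested.

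Of 8 genes of bone marrow and cartilage, also chosen after their values had been seen, 0 were called in limma. On normal array 4 the neutrophil granule genes Camp and Ngp were 6.77 and 5.2, against highest values of 2.29 and 3.05 on the other normal arrays. Col2a1, the collagen of cartilage, was 5.89 there and 3.96 or less on the others.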
